A study of Mus musculus with 12 samples.

Results

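Among 5427 protein-coding genes with a TPM of 10 or more in every library, 35 genes (0.645%) divided their RNA differently between their annotated transcripts in CD11c cells of tumor-draining lymph nodes with and without a CD40 agonist. TPM is a transcript's abundance corrected for its length and for the depth of the library. The quantity examined was the transcript share, that is, the TPM of 1 transcript as a percentage of the summed TPM of all transcripts of its gene in the GENCODE M21 annotation. A gene entered the set when a transcript's share differed between agonist and tumor-draining libraries in the same direction in all 4 title prefixes, with a mean difference of at least 15 percentage points. In all, 43 transcripts of these 35 genes met the rule. The whole series holds 52355 annotated genes, most of them outside the 5427. Of the 5427 genes, 4991 have 2 or more transcripts, and a gene with 1 transcript cannot meet the rule. The members were thus chosen by the TPM shares in the agonist and tumor-draining libraries, and their share differences between agonist and tumor-draining libraries are given as descriptions without a test. The same rule applied to the other pairs of groups found 31 genes for tumor-draining minus healthy (0.571%) and 41 genes for agonist minus healthy (0.755%).

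Total RNA was sequenced from CD11c cells that had been taken from mouse inguinal lymph nodes. CD11c, encoded by Itgax, is the integrin that marks dendritic cells and is also carried by some macrophages. The 12 libraries form 3 groups of 4. Healthy libraries came from mice with no tumor and no agonist, tumor-draining libraries (TdLN) from nodes that drain a subcutaneous KPC tumor, and agonist libraries (TdLN_CD40) from such nodes after a CD40 agonist. KPC names a mouse model of pancreatic cancer. The labels used here do not give the agonist's clone, dose or timing, a control treatment, the strain, sex or age of the mice, or the number of mice per library. Each sample title opens with a number, and each of the 4 numbers occurs once in every group. The libraries are named below by group and by that prefix, 1 to 4. Nothing in the labels says that libraries came from separate animals, so the p-values below measure the spread between these libraries, which may be technical.

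CD40 sits on dendritic cells, B cells and macrophages, and its ligand on helper T cells licenses dendritic cells to prime CD8 T cells. Agonist antibodies are used to supply that signal in place of T cells. A gene can yield several transcripts through alternative first exons, which follow from the choice of promoter, through inclusion or skipping of cassette exons, through alternative splice sites and through alternative last exons. A transcript whose stop codon lies well upstream of its last exon junction is a typical substrate of nonsense-mediated decay, the surveillance pathway that degrades such RNA.

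The total estimated count ranged from 32626784 to 56320661 per library. Defining dendritic cell genes were present in every library: Itgax ranged from 177 to 339 TPM, Flt3 from 54.5 to 165 TPM and H2-Ab1 from 2270 to 5940 TPM. Summed levels of cell type markers differed with the agonist. The summed level of 17 dendritic cell markers was 19620 to 29080 TPM in tumor-draining and 12490 to 19060 TPM in agonist libraries, lower in 4 of 4 prefixes. The summed level of 10 macrophage and monocyte markers was 2304 to 2785 TPM and 2815 to 4498 TPM, higher in 4 of 4 prefixes. Single markers went against their sums: in edgeR Ccr7 of the dendritic cell list was called higher, with the block also Batf3 and Fscn1, and Ccr2 of the macrophage and monocyte list lower, with the block also Adgre1. Summed markers of natural killer cells (8 genes) were 49.4 to 81.4 TPM and 66.0 to 132 TPM, higher in 4 of 4, and those of T cells (10 genes) were 262 to 559 TPM and 188 to 518 TPM, lower in 4 of 4. Cd3e of T cells (1.3 to 8.31 TPM) and Ncr1 of natural killer cells (2.24 to 10.8 TPM) were above 0 in every library. The nuclear RNA Malat1 was also higher in 4 of 4 prefixes, at 1547 to 4600 TPM and 2036 to 6526 TPM. The part of these shifts in the transcript shares was not tested, and in bulk RNA a change of isoform within a cell type and a change in the mix of cell types that use different isoforms cannot be told apart.

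For each gene, the transcript with the largest difference is called the lead, and the transcript of the same gene that differed most in the other direction its counterpart. The lead's share was lower in agonist than in tumor-draining libraries in 19 genes and higher in 16. Mean differences ran from 15.1 to 29.7 points in size, with a median of 16.2. The 4 agonist shares lay entirely outside the range of the 4 tumor-draining shares for 15 of the 35 leads, against 2.04% of the 18174 transcripts with a mean share of 5 to 95%, and the rule favors such transcripts. The rule chose leads with a wide gap between the agonist and tumor-draining means, which favors a healthy mean between them. The same count over all 18174 transcripts was not made. In 29 of 35 leads the healthy mean lay between the other 2 means. It lay beyond the agonist mean in 5 and beyond the tumor-draining mean in 1, and it was nearer the agonist mean in 16 and nearer the tumor-draining mean in 19.

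**Figure D1:**
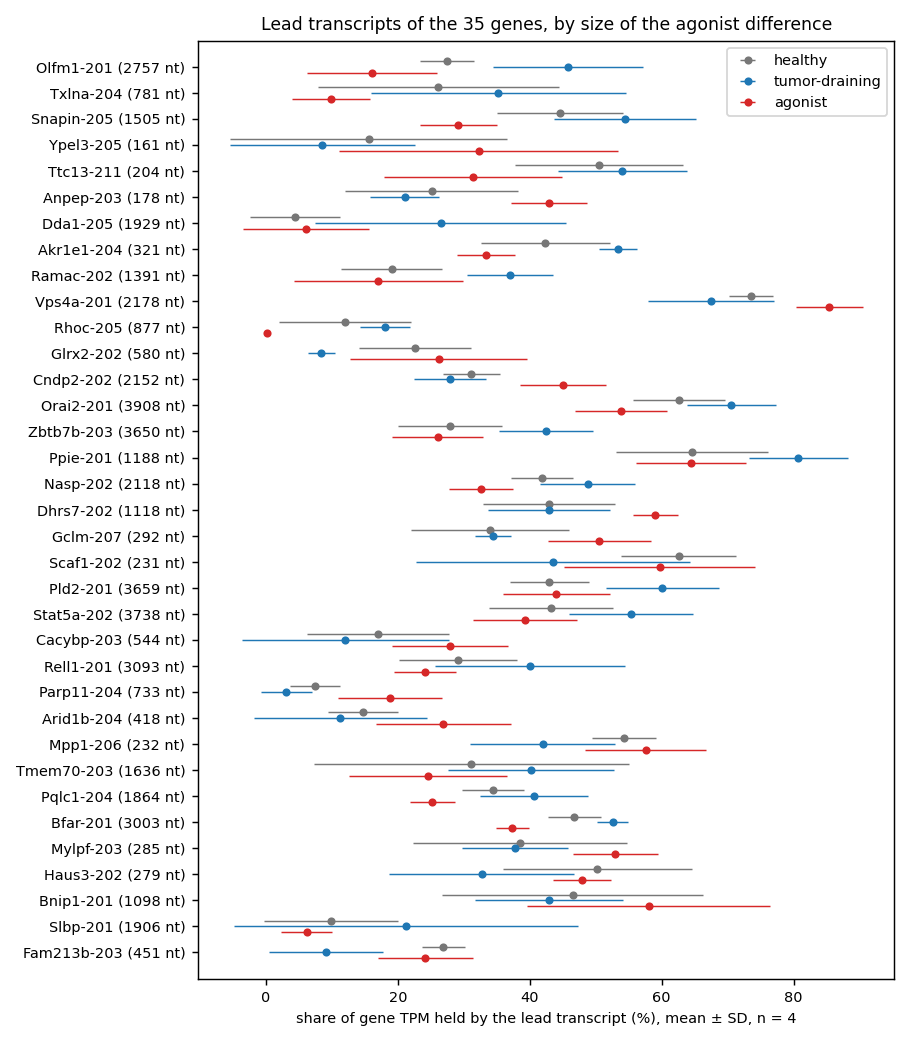
Share of gene TPM held by the lead transcript of each of the 35 genes (x axis, percent; points are means of 4 libraries, bars ± SD), with genes ordered from the largest to the smallest agonist difference and transcript lengths in nucleotides. Olfm1-201 leads the set, at 45.8% in tumor-draining and 16.1% in agonist libraries. Most healthy means lie between the other 2, a position that the rule favors.

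The members were modestly expressed. Their median gene level was 20.9 TPM, against 35.8 TPM over all 5427 genes, and 82.9% of them lay under 30 TPM, against 41.4% of all. They had a median of 6 annotated transcripts each, as did all genes tested. The gene level itself moved by less than 1.5-fold between agonist and tumor-draining means in 28 of 35 genes, with a range of ratios from 0.467 (Olfm1) to 2.12 (Rhoc). Of the leads, 24 are annotated as protein-coding, 7 as processed transcripts without a coding sequence, 3 as substrates of nonsense-mediated decay and 1 as a retained intron. Lead and counterpart start in separate first exons in 21 genes and end in separate last exons in 19. They encode the same protein in 4 genes and different coding sequences in 15, while in 16 at least one of the pair has none. In 12 genes every base of the lead is also covered by exons of other transcripts of the gene, so that its share rests on splice junctions and on the read model of the quantifier.

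The largest difference was at Olfm1, which encodes the secreted glycoprotein olfactomedin 1. Its transcripts begin at a pair of first exons whose 5′ ends lie 12566 nucleotides apart on chromosome 2, and each first exon carries its own start codon, so that the proteins differ at their amino terminus. The first coding stretches are shown from the annotated transcripts (GENCODE M21, GRCm38, plus strand) because they are what the switch exchanges, with the start codon in capitals; Olfm1-201 occupies chr2:28205950-28206099 and Olfm1-202 chr2:28193397-28193462.
Olfm1-201: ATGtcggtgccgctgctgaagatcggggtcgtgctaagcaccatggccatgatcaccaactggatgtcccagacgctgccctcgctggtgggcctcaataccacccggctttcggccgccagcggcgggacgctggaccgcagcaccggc
Olfm1-202: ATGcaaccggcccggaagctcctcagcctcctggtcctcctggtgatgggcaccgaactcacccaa

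Olfm1-201 held 62.3, 36.7, 40.6 and 43.6% of the gene's TPM in tumor-draining libraries of prefixes 1 to 4 and 15.3, 3.67, 17.8 and 27.5% in agonist libraries. Every agonist library lay below every tumor-draining library, and the mean difference was -29.7 points ± 13.4 (SD of 4 within-prefix differences). Healthy libraries held 28.6, 23.5, 24.97 and 32.6%, between the other groups' means. The upstream-initiated Olfm1-202 was the mirror image, at 20.5, 41.2, 42.0 and 39.0% without and 62.0, 67.1, 58.1 and 48.8% with the agonist. Summing Olfm1-201 and Olfm1-203, which share a first exon, gave a start region used for 64.0% of the gene's TPM in tumor-draining, 52.2% in healthy and 39.3% in agonist libraries. The gene's level was also lower with the agonist, at 51.3 and 24.0 TPM in tumor-draining and agonist libraries. These transcripts were well covered, with 156 to 4757 estimated counts for Olfm1-201, and the difference was -33.3 points when shares were taken from estimated counts.

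In 4 genes, lead and counterpart have separate first exons and the same coding sequence. In Rhoc, Stat5a and Ramac the counterpart rose by less than the lead fell, so other transcripts also took up share. Rhoc, a small GTPase of actin organization and cell migration, had the narrowest spread. Rhoc-205 held 20.6, 14.3, 22.05 and 15.5% in tumor-draining libraries, 0.78% in the agonist library of prefix 1 and was listed at 0 in the other 3. Its estimated counts were 165, 142, 249 and 127 without the agonist and 18.7, 0, 0 and 0 with it, while the gene's level was 2.12 times as high. Healthy libraries were uneven, at 12.9, 24.4, 0 and 10.5%. The counterpart Rhoc-202, whose first exon starts 659 nucleotides away, held 17.8, 6.45, 8.82 and 16.3% without and 19.1, 24.8, 26.0 and 22.7% with the agonist, with no overlap.

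Stat5a encodes a transcription factor downstream of cytokine receptors such as that of GM-CSF, a growth factor of dendritic cells. Stat5a-202 held 49.0, 51.4, 69.3 and 51.5% in tumor-draining and 30.3, 37.1, 49.2 and 40.6% in agonist libraries. The groups overlapped by the library of prefix 3, but the share was lower in every prefix by a like amount, with a mean difference of -16.0 points ± 4.20. With 1770 to 6384 estimated counts it was the most deeply covered lead of the set. Its counterpart Stat5a-201 starts 305 nucleotides upstream in a separate first exon, at 11.8% ± 3.87 (SD, n = 4) and 17.9% ± 3.63. Transcripts that end where Stat5a-202 ends summed to 76.9% in tumor-draining and 69.4% in agonist libraries, lower in 4 of 4 prefixes.

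Ramac encodes the activating subunit of the enzyme that methylates the mRNA cap. Ramac-202 held 40.3, 40.9, 39.5 and 27.2% in tumor-draining and 0.277, 31.5, 17.2 and 19.3% in agonist libraries. The agonist library of prefix 1 decided much of the size, since the mean difference was -19.9 points over 4 prefixes and -13.2 without that prefix. The counterpart Ramac-201, with the other first exon 358 nucleotides away, rested at 60.4% ± 4.83 and 77.2% ± 9.89. Cndp2 encodes a cytosolic dipeptidase and has 2 transcripts that carry the gene's whole TPM. Cndp2-202 held 24.5, 24.9, 35.96 and 26.0% in tumor-draining and 42.5, 38.6, 45.0 and 54.0% in agonist libraries, with no overlap, and Cndp2-201 held the remainder.

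**Figure D2:**
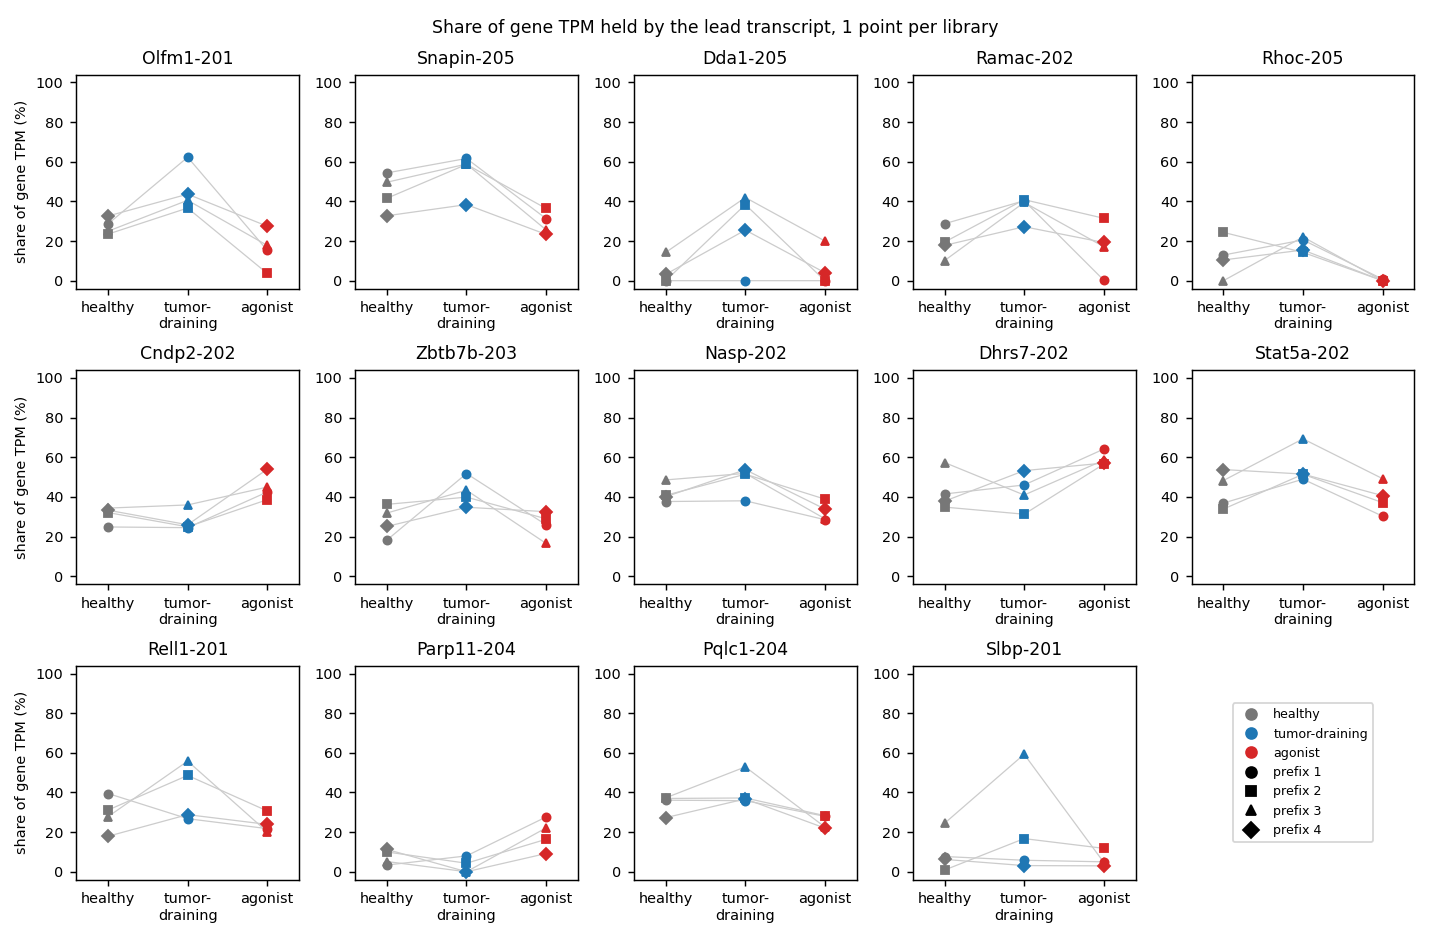
Share of gene TPM (y axis, percent) in each library for the leads of the 14 genes that also met the rule when shares were computed from estimated counts; points are libraries, marker shape gives the title prefix and grey lines join libraries of 1 prefix. Of these 14 leads, 13 met the rule on counts themselves, while Parp11-204 differed by 6.08 points there and its gene met it through another transcript. Rhoc-205 sits at or near 0 in all 4 agonist libraries, while for Slbp-201 the tumor-draining library of prefix 3 stands alone at 59.3%.

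Other genes differed in TPM share between start regions together with other parts of the transcript. Over all members, the share was also summed over the transcripts that start where the lead starts. That sum includes the lead, so the rule favors a difference in it. In Ramac, Rhoc, Cndp2, Stat5a, Parp11, Ttc13, Vps4a, Scaf1, Arid1b, Mylpf and Haus3 the lead is its only transcript. For these genes the rule itself fixed the outcome. The sum differed one way in 4 of 4 prefixes in 21 genes, and by 15 points or more in 15. Of those 15, only Olfm1, Ypel3, Glrx2 and Zbtb7b have other transcripts in the sum. The same count over all genes was not made. On estimated counts the sum differed by -30.9 points in Olfm1, -19.5 in Ramac, -17.6 in Rhoc and 17.3 in Cndp2. It differed by -15.8 in Stat5a and -15.5 in Zbtb7b. In Mylpf it differed by 7.03, in Glrx2 by 6.4, in Parp11 by 6.08 and in Vps4a by 4.96. In Haus3 (1.155), Arid1b (0.835), Scaf1 (0.3), Ttc13 (-0.285) and Ypel3 (-0.864) the count share of the start region hardly differed. Zbtb7b encodes ThPOK, a zinc-finger transcription factor best known for committing T cells to the CD4 lineage. Zbtb7b-203 held 51.8, 39.9, 43.4 and 34.8% in tumor-draining and 25.9, 29.0, 16.6 and 32.6% in agonist libraries, without overlap, and its start region went from 46.4 to 29.9% on average. Parp11, a mono-ADP-ribosyltransferase, moved the other way. Parp11-204 held 7.99, 4.30, 0 and 0% without and 27.6, 16.4, 22.1 and 9.19% with the agonist, without overlap, and healthy libraries lay at 3.38 to 11.3%. It rests on few reads, with 0 to 223 estimated counts per library.

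Ppie, a cyclophilin found in spliceosomes, and Pld2, a phospholipase D, had their full-length transcripts lower in every prefix by nearly constant amounts. Ppie-201 held 73.2, 76.3, 90.0 and 83.4% without and 57.0, 61.8, 76.3 and 62.7% with the agonist, a difference of -16.3 points ± 3.14. Pld2-201 held 50.8, 54.8, 67.5 and 67.2% and then 37.6, 36.9, 53.3 and 48.5%, a difference of -16.1 points ± 2.73. Both groups of 4 overlapped in these genes because the prefixes differed from each other by as much as the agonist difference. Their counterparts are shorter: Ppie-203 is a processed transcript of 861 nucleotides and Pld2-206 a fragment of 376 nucleotides. Vps4a encodes an ATPase that disassembles the membrane-remodeling ESCRT complex. Its coding transcript Vps4a-201 held 58.4, 60.9, 78.6 and 72.0% without and 79.0, 90.3, 84.0 and 88.6% with the agonist, without overlap, and the intron-retaining Vps4a-203 was at 28.7% ± 7.85 and 11.1% ± 4.64. The difference of 18.0 points for Vps4a-201 was 4.96 on estimated counts (92.1 and 97.0%). Among protein-coding transcripts only, Vps4a-201 is the sole transcript of its gene, so its difference was 0 by construction. That of Ppie-201 was also 0, and neither value is read as a loss of the difference.

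**Figure D3:**
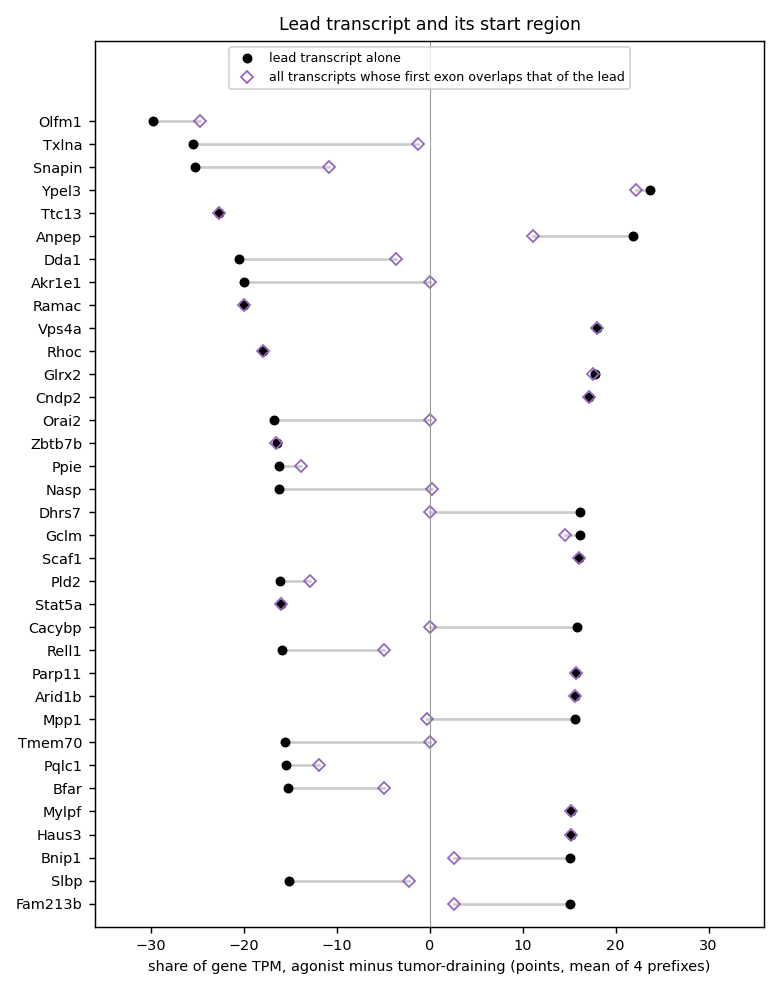
Mean difference in share of gene TPM, agonist minus tumor-draining (x axis, percentage points, 4 prefixes), for the lead transcript alone (filled) and for all transcripts whose first exon overlaps that of the lead (open), 1 row per gene. In Ramac, Rhoc, Cndp2 and Stat5a, among others, the lead is the only transcript of its start region, so both points are the same value. In Olfm1 and Zbtb7b the start region carries most or all of the lead's difference, while in Snapin, Nasp, Dhrs7, Txlna and Dda1 it carries less.

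In a second group the lead differs from another transcript of its gene by cassette exons in the coding sequence. Such pairs can differ elsewhere as well: their 3′ ends lie 336 nucleotides apart in Snapin and 557 in Nasp. How far the estimated shares rest on the exon or on those ends was not tested. The exons are shown because their length decides the reading frame downstream or, in Rell1 and Bnip1, because they hold a stop codon. Capitals mark the coding bases of the cassette exon, and lower case the 12 flanking bases of the spliced transcript (GENCODE M21 transcripts, GRCm38). After the capitals of Rell1 and Bnip1, lower case marks the stop codon inside the exon. The last bases of the Rell1 exon are left out. The exons lie on the minus strand at chr3:90490548-90490594 (Snapin, 47 nucleotides), chr12:72657328-72657434 (Dhrs7, 107), chr4:116614330-116614410 (Nasp, 81) and chr5:63939669-63939762 (Rell1, 94), and on the plus strand at chr17:26782578-26782631 (Bnip1, 54).
Snapin: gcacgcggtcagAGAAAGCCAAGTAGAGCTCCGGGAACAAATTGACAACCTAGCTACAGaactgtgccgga
Dhrs7: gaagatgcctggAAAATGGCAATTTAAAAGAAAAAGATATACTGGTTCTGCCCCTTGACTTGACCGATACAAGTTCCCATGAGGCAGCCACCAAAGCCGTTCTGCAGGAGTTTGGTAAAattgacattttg
Nasp: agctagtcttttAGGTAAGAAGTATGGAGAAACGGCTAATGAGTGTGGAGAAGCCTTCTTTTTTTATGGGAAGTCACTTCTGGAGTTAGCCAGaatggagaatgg
Rell1: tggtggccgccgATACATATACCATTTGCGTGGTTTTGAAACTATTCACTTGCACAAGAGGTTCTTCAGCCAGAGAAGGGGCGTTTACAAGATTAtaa
Bnip1: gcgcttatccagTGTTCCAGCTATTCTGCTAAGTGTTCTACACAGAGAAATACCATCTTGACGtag

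Snapin encodes a SNARE-associated subunit of the BLOC-1 complex, which sorts cargo to lysosome-related organelles. Snapin-205 lacks the 47-nucleotide exon, whose length is not a multiple of 3, and reads into a TGA stop 103 nucleotides before the last exon junction. This skipped form held 61.7, 58.7, 58.8 and 38.4% in tumor-draining libraries and 31.3, 36.4, 25.6 and 23.4% in agonist libraries. The agonist libraries all lay below the tumor-draining ones, with a mean difference of -25.2 points ± 8.22. Transcripts that include the exon, Snapin-203 and Snapin-204, together held 24.1% without and 38.4% with the agonist and were higher in 4 of 4 prefixes. The coding Snapin-203 held 22.4 and 30.7% of the gene's TPM. Snapin-204, also annotated as a substrate of nonsense-mediated decay, held 1.66 and 7.67%. The intron-retaining Snapin-201 was at 18.0 and 25.8% and Snapin-202 at 3.52 and 6.65%, so the share did not pass to the coding form alone. The healthy mean of the skipped form was 44.6% ± 9.5. Because Snapin-205 is 1505 nucleotides long and had 387 to 1115 estimated counts, its difference on the count scale was nearly the same, -25.3 points.

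Dhrs7, a short-chain dehydrogenase of the endoplasmic reticulum, moved toward its skipped form. Dhrs7-202 omits the 107-nucleotide exon, loses the frame and stops at a TGA 577 nucleotides before the last junction. It held 46.0, 31.3, 41.0 and 53.3% in tumor-draining and 64.1, 56.5, 58.5 and 57.1% in agonist libraries. The agonist libraries were all higher and also closer together (59.1% ± 3.48 against 42.9% ± 9.24), and the healthy mean was 42.9% ± 10.01. The full-length Dhrs7-201 was correspondingly at 52.2% ± 7.98 and 37.1% ± 3.49. Snapin and Dhrs7 thus differed in direction: the form that skips the exon was lower with the agonist in Snapin and higher in Dhrs7.

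Nasp encodes a chaperone of linker and core histones. Its 81-nucleotide exon keeps the frame, so that Nasp-202 has 1344 and Nasp-203 has 1263 coding nucleotides. Nasp-202, with the exon, held 38.0, 51.5, 51.9 and 53.7% without and 28.5, 38.9, 29.0 and 33.9% with the agonist. Only the tumor-draining library of prefix 1 reached into the agonist range. The skipped Nasp-203 held 34.7, 27.7, 38.9 and 29.2% and then 44.3, 33.4, 56.9 and 49.0%. Summed over all transcripts that carry the exon, inclusion was 59.8% in tumor-draining, 50.7% in healthy and 47.8% in agonist libraries.

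Rell1, a transmembrane relative of the tumor necrosis factor receptor family member RELT, and Bnip1, a SNARE of the endoplasmic reticulum, have the opposite arrangement: there the extra exon brings the stop codon. Rell1-201 includes the 94-nucleotide exon, reaches a TAA inside it, 745 nucleotides before the last junction, and held 26.8, 48.6, 55.8 and 28.8% without and 21.8, 30.7, 20.1 and 23.9% with the agonist. Its difference of -15.9 points shrank to -9.28 without prefix 3. The form that skips the exon, Rell1-204, is not the counterpart and was higher in 3 of 4 prefixes, by 6.92 points on average. Bnip1-202 includes its 54-nucleotide exon, which holds a TAG 409 nucleotides before the last junction. It held 41.8, 15.1, 28.7 and 24.5% without and 35.3, 11.04, 11.4 and 1.57% with the agonist, while the coding lead Bnip1-201 was at 42.9% ± 11.3 and 58.0% ± 18.4. Among protein-coding transcripts only, the difference of 15.1 points for Bnip1-201 was 1.45. Both groups of 4 overlapped in these genes.

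Bfar, an apoptosis regulator with a ubiquitin ligase domain, differed by neighboring coding exons of 205 and 170 nucleotides. Bfar-201, which has both and a coding sequence of 1350 nucleotides, held 53.1, 51.8, 55.4 and 49.9% in tumor-draining and 34.8, 40.0, 35.6 and 38.9% in agonist libraries. Those groups did not overlap and were tight, at 52.6% ± 2.31 and 37.3% ± 2.53, with healthy libraries between them at 46.8% ± 4.03. Bfar-202, which skips both exons and keeps 975 coding nucleotides, was higher with the agonist in 4 of 4 prefixes, by 6.98 points on average.

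In Dda1 and Txlna the lead and its counterpart are almost the same sequence. Dda1, a component of CUL4 ubiquitin ligases, has a pair of transcripts of 1929 and 1933 nucleotides that differ by 4 bases at the acceptor of exon 2. Their junctions are shown because those bases, in capitals, are all that separates them (GENCODE M21, GRCm38, plus strand; the second exon starts at chr8:71472037 in Dda1-202 and at chr8:71472041 in Dda1-205, and both end at chr8:71472117).
Dda1-202: acgcggacgatgGCAGactttctgaaag
Dda1-205: acgcggacgatgactttctgaaag

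Dda1-205, annotated without a coding sequence, held 0.0027, 38.4, 42.0 and 25.5% in tumor-draining and 0.0008, 0.0017, 20.02 and 4.03% in agonist libraries. In prefix 1 it was near 0 in all 3 groups, so the 4 prefixes point one way only because the first counts a difference of a few thousandths of a percent. Healthy libraries also ranged from 0 to 14.3%. The counterpart Dda1-202 did not meet the rule, at 0.165, 5.76, 0.025 and 33.3% without and 9.39, 0.181, 27.1 and 60.2% with the agonist. In prefix 2 both were lower with the agonist, and the processed transcript Dda1-208 was at 30.6% without and 66.5% with it. All transcripts that use the same first exon as Dda1-205 summed to 59.5% without and 55.9% with the agonist, higher in 3 of 4 prefixes. Txlna encodes taxilin alpha, a syntaxin-binding protein of vesicle traffic, and its 2 fragments Txlna-204 (781 nucleotides) and Txlna-207 (791 nucleotides) overlap in all but 25 and 35 bases. Txlna-204 held 7.41, 50.9, 37.7 and 44.9% without and 3.18, 14.2, 6.58 and 15.3% with the agonist, and Txlna-207 held 24.5, 0.879, 0.172 and 0.018% and then 30.3, 29.8, 44.0 and 18.2%. Their shared start region had a mean difference of -1.23 points ± 10.6, higher in 2 and lower in 2 of 4 prefixes, at 32.6, 51.8, 38.4 and 45.3% without and 33.8, 43.9, 51.1 and 34.3% with the agonist.

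The unit of the share decided much of the remaining set. TPM divides a count by the transcript's effective length, so a short transcript gains a large share of TPM from few reads. Of the 35 leads, 8 (22.9%) are shorter than 300 nucleotides, against 3.24% of the 18174 transcripts, and 13 (37.1%) are shorter than 600, against 29.4%. For those 13 the median difference was 16.1 points in TPM share and 1.16 points in count share, and their median count per library was 26. For the 22 longer leads it was 16.2 and 15.7 points, with a median count of 794.5. A difference of 10 points or more in count share was present in 1 of the 13 short leads and in 19 of the 22 longer ones; the other 3 were Txlna-204, Vps4a-201 and Parp11-204. Direction went with length as well, since 11 of the 13 short leads were higher and 17 of the 22 longer ones lower with the agonist. Over all tested genes, transcripts under 300 nucleotides made up 5.04 to 5.32% of TPM in tumor-draining and 5.21 to 5.42% in agonist libraries, higher in 4 of 4 prefixes. The part of this shift in the short leads was not tested.

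**Figure D4:**
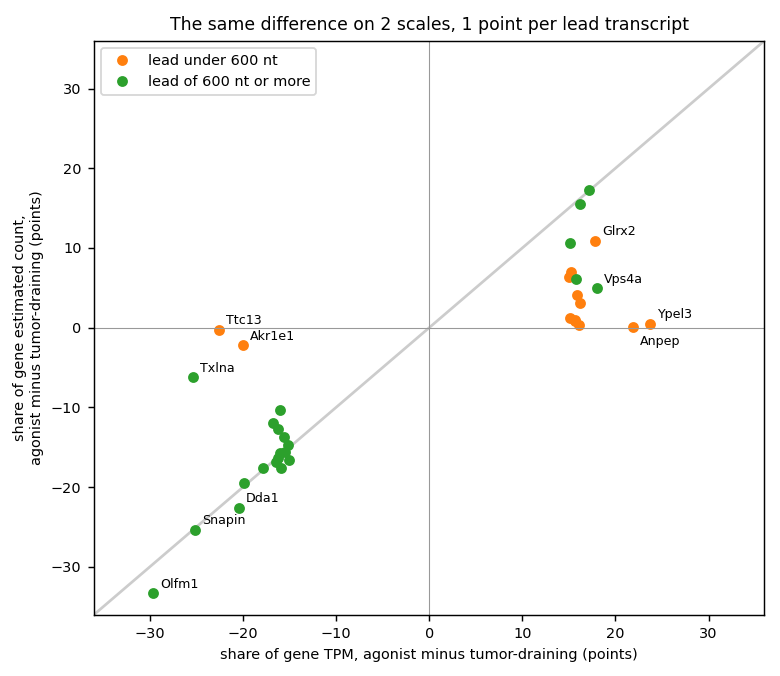
Difference in share for each lead, agonist minus tumor-draining, measured on TPM (x axis, percentage points) and on estimated counts (y axis, percentage points); colors split leads at 600 nucleotides and the grey line marks equality. Longer leads such as Olfm1-201 and Snapin-205 follow the line, while Ypel3-205, Anpep-203 and Ttc13-211 lie at about 0 on the count scale.

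Examples show how few reads these were. Ypel3 belongs to the Yippee family of zinc-binding proteins, and the 161-nucleotide Ypel3-205 held 29.3, 4.69, 0 and 0% of TPM without and 41.9, 54.9, 26.0 and 6.05% with the agonist on 0 to 8 estimated counts. Anpep encodes aminopeptidase N, or CD13, a surface enzyme of myeloid cells. The 178-nucleotide Anpep-203 held 27.8, 20.6, 15.1 and 20.7% and then 48.0, 35.6, 46.9 and 41.2%, without overlap, on 1 to 17 counts, while the full-length Anpep-201 had 2572 to 7682 counts and kept 63.0 and 62.5% of the gene's count. Ttc13-211, 204 nucleotides of a tetratricopeptide repeat gene, held 68.7, 49.3, 49.0 and 49.1% and then 31.8, 40.6, 12.2 and 41.1% on 1 to 14 counts. For these leads the share of TPM differed and the share of reads hardly did. The counterpart Ypel3-211 differed by -19.7 points in TPM share and by -7.06 points in count share.

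Akr1e1, an aldo-keto reductase, exchanged short processed transcripts with separate last exons. Akr1e1-204 held 49.1, 54.6, 55.5 and 54.1% without and 33.9, 34.2, 27.3 and 37.9% with the agonist, and Akr1e1-203 held 24.5, 22.3, 19.6 and 30.3% and then 45.9, 38.0, 50.0 and 39.5%. Neither pair of groups overlapped, on 18 to 42 and 26 to 85 counts. Glrx2, a mitochondrial glutaredoxin, was the short lead whose count share moved most, by 10.9 points. Glrx2-202 held 8.26, 8.52, 5.92 and 10.9% in tumor-draining and 9.49, 24.7, 42.1 and 28.4% in agonist libraries, with healthy libraries at 15.4 to 34.8%, and the difference of 17.8 points was 11.7 without prefix 3.

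The other short leads were all higher with the agonist. Gclm-207, from the regulatory subunit of the enzyme that starts glutathione synthesis, held 33.8, 30.9, 37.1 and 35.8% and then 40.9, 51.5, 49.9 and 60.0%, without overlap, on 10 to 61 counts. Scaf1-202, from a factor that binds the tail of RNA polymerase II, held 59.4, 60.1, 38.6 and 16.2% and then 63.0, 69.3, 68.0 and 38.4% on 2 to 27 counts. Cacybp-203, from a calcyclin-binding protein, held 12.9, 1.30, 0 and 33.9% and then 24.3, 17.2, 34.5 and 35.8%, and its difference of 15.9 points was 9.70 without prefix 3. Arid1b-204, Mpp1-206, Mylpf-203, Haus3-202 and Fam213b-203 completed the group, with differences of 15.1 to 15.7 points and overlapping groups, and Haus3-202 was at 9.73 points without prefix 4. Arid1b encodes a subunit of the BAF chromatin remodeling complex, Mpp1 a membrane scaffold, Mylpf a myosin light chain, Haus3 a subunit of the augmin complex of the spindle and Fam213b a prostaglandin F synthase.

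Among longer leads not yet described, Orai2, a pore subunit of store-operated calcium channels, had its main transcript lower without overlap. Orai2-201 held 71.9, 69.0, 78.9 and 62.5% in tumor-draining and 43.5, 57.2, 58.7 and 55.8% in agonist libraries, with healthy libraries at 54.0 to 70.2%. All its transcripts share a first exon, and the counterpart Orai2-203 carries an additional exon of 109 nucleotides. Pqlc1-204, of a PQ-loop membrane protein, held 35.9, 37.2, 52.9 and 36.7% and then 28.0, 28.3, 22.6 and 22.03%, without overlap. Tmem70-203, from an assembly factor of ATP synthase, differed by -15.6 points over 4 prefixes and by -6.97 without prefix 3. Slbp encodes the protein that binds the stem-loop of histone mRNA, and Slbp-201 held 5.80, 16.7, 59.3 and 3.11% and then 5.01, 11.8, 4.75 and 2.98%. One tumor-draining library set that value: without prefix 3 the difference of -15.1 points was -1.94.

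The threshold fell in a dense range of differences. The members just inside it were Fam213b-203 at 15.06 points, Slbp-201 at -15.09 and Bnip1-201 at 15.13. Just outside were Fcho2-201 at -14.97, Agpat4-201 at 14.85 and Hsph1-207 at -14.68.

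Comparisons with healthy libraries were tested across all 18174 transcripts with limma on the log2 odds of the share, although the tumor-draining and agonist libraries had also chosen the members, so that a call would be no independent support. Between tumor-draining and healthy libraries, limma called 0 of 18174 transcripts (0%) at an adjusted p under 0.05, with 542 at an unadjusted p under 0.05, and none of the 35 leads, of which 10 had an unadjusted p under 0.05. Between agonist and healthy libraries it called 1 of 18174 (0.00550%), with 706 at an unadjusted p under 0.05, and none of the leads, of which 12 had an unadjusted p under 0.05. With the prefix as a block, these counts of calls were also 0, 0, 1 and 0. An edgeR test of transcript usage on estimated counts called 57 of 32159 transcripts for tumor-draining and 58 for agonist against healthy. It tested 32 of the leads and called 0 in the former comparison and 1, Rhoc-205, in the latter.

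Rhoc-205 came closest in limma as well. Its log2 odds were lower in agonist than in healthy libraries by a difference of -3.48 (standard error 0.497), with an adjusted p of 0.0795 in limma and 0.0629 with the prefix as a block. For Olfm1-201 the differences were 1.14 in tumor-draining and -1.09 in agonist against healthy libraries (standard error 0.504, limma adjusted p of 1 and 0.998), opposite in sign around the healthy level. The single called transcript was Hsph1-207, a 254-nucleotide processed transcript of a heat shock chaperone gene that lies just outside the set. It held 58.5, 66.2, 68.0 and 61.5% in healthy, 33.6, 44.3, 39.9 and 45.8% in tumor-draining and 22.02, 36.6, 27.6 and 18.9% in agonist libraries (limma adjusted p = 0.0247 for agonist against healthy). No transcript was called when any 1 of healthy prefixes 1, 2 and 4 or agonist prefixes 1, 3 and 4 was left out.

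Genes that carry out splicing were examined at the gene level, from lists of RNA-processing factors none of which is a member of the set. Splicing regulators, the SR proteins, hnRNPs and related factors that choose splice sites, were mostly at lower levels with the agonist, by small amounts. Of 59 regulators, 50 had a log2 fold change below 0 between agonist and tumor-draining libraries, with a median of -0.196 beside 0.0171 over the 23729 genes tested. In edgeR's quasi-likelihood test 0 of 59 passed, beside 1.85% of all genes called higher and 0.830% called lower; 15 had an unadjusted p under 0.05, beside 3059 of all 23729 genes. DESeq2 called 4 of the 59, all lower, beside 692 higher and 494 lower among all genes. With the prefix as a block, 20 of 59 fell and 0 rose, beside 6.58% of all genes lower and 6.74% higher. The marker sums of dendritic cells and macrophages moved in the same libraries, as given above, and their part in this count was not tested.

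Among the 20, Mbnl1, a muscleblind protein that controls inclusion of cassette exons, was at 803 ± 121 CPM (depth-normalized counts; SD, n = 4) in tumor-draining and 563 ± 109 CPM in agonist libraries (edgeR log2 fold change -0.49, adjusted p = 0.199, and 0.00247 with the block). The SR protein Srsf3 was at 213 ± 25.3 and 162 ± 18.5 CPM (edgeR log2 fold change -0.38, adjusted p = 0.18, and 0.00684 with the block). Srsf1, its founding relative, was at 246 ± 29.8 and 188 ± 6.12 CPM, and the paraspeckle protein Sfpq at 243 ± 19.6 and 187 ± 5.92 CPM. Each of the 4 was lower in 4 of 4 prefixes.

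Of 18 measured genes of 3′ end processing, edgeR called 0 without the block, with 2 at an unadjusted p under 0.05 and 0 in DESeq2. With the block 4 fell, namely Cpsf2, Cstf2, Nudt21 and Papola, which cleave, select or polyadenylate the end of the transcript. Of 14 genes of nonsense-mediated decay, 0 passed with or without the block or in DESeq2, with 2 and 0 at an unadjusted p under 0.05, and their median log2 fold change was -0.0959. Against healthy libraries, edgeR without the block called 0 of 59 splicing regulators in tumor-draining libraries (0 at an unadjusted p under 0.05, 0 in DESeq2, beside 0.181% of genes higher and 0.0169% lower) and 0 of 59 in agonist libraries (4 and 0, beside 4.25% higher and 2.03% lower). With the block, 1 fell in tumor-draining libraries, beside 2.28% of genes lower and 4.02% higher, and in agonist libraries 8 fell and 1 rose, beside 8.46% lower and 11.7% higher.

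**Figure D5:**
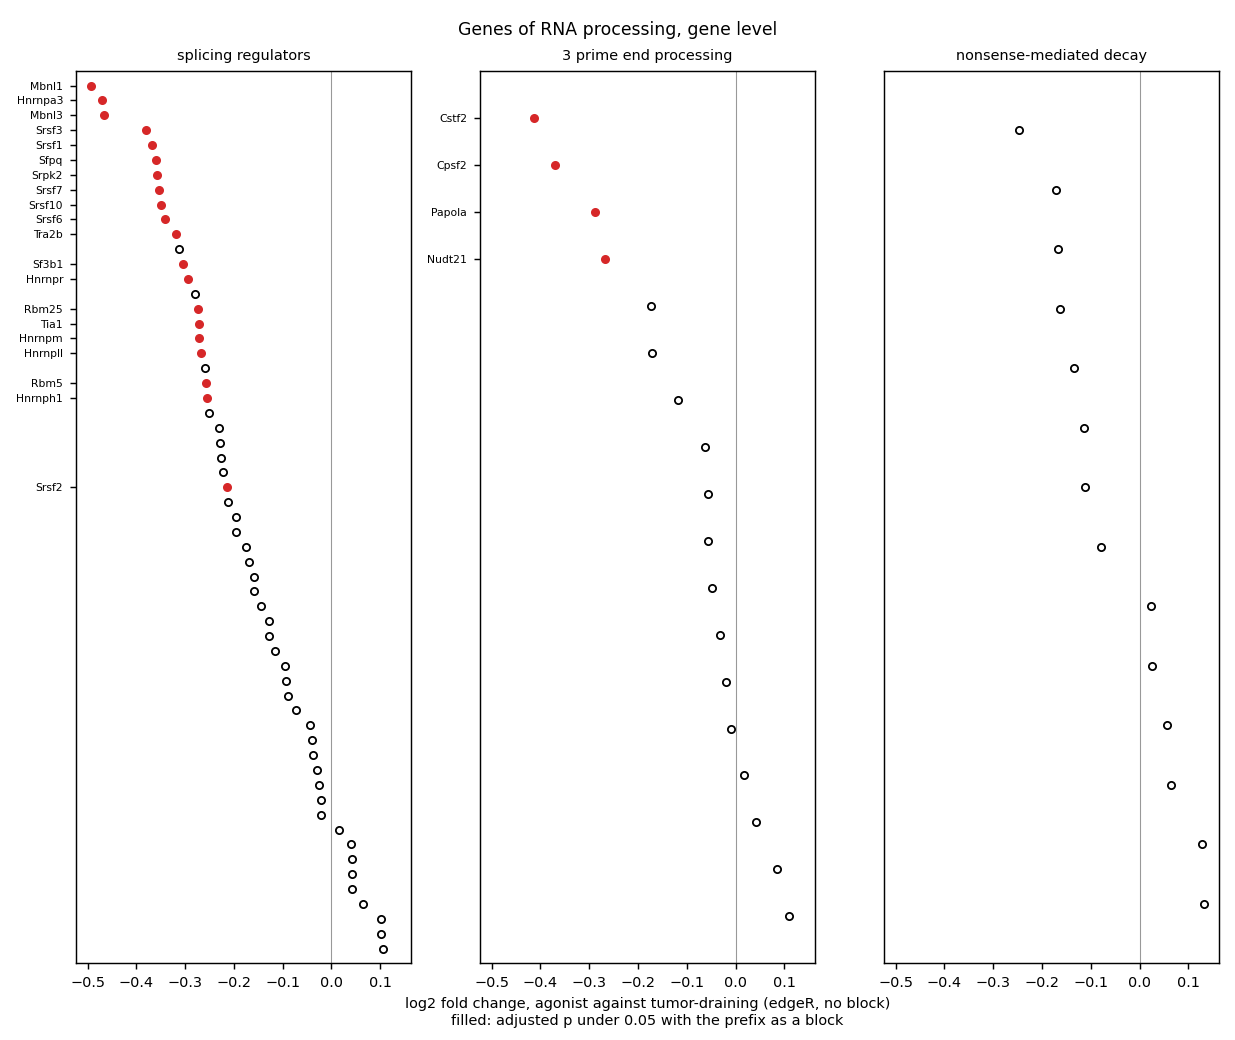
Log2 fold change of genes of 3 RNA-processing lists between agonist and tumor-draining libraries (x axis, edgeR without a block), ordered within each list; filled points passed an adjusted p of 0.05 with the title prefix as a block and are named. Of 59 splicing regulators 50 lie below 0 and 20 are filled, all of them below 0.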

How the data were processed

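The authors deposited estimated counts and TPM per transcript for 12 libraries, made from total RNA with a directional kit per the labels' protocols. The estimated counts were made by the authors with Salmon on mm10 per the submitters' processing notes (sources used here give no version or annotation). The deposited counts and TPM are named sailfish, so which tool made them is not settled here. The deposited TPM values are normalized for length and depth. Of 132374 transcripts, 131974 matched GENCODE M21, and the 400 others were left out.

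The members and lists were chosen with earlier results of these data known. Shares were computed with Python 3.11.15 and pandas 2.3.3. Shares were tested with limma 3.58.1 (R 4.3.3; trend and robust) on log2((TPM + 0.5)/(TPM of the gene's other transcripts + 0.5)) for transcripts with a mean share of 5 to 95%. Estimated counts summed per gene and rounded were tested with edgeR 4.0.16 (quasi-likelihood, TMM, filterByExpr with a count minimum of 10). Both fits used all 12 libraries, with Benjamini-Hochberg adjustment over all features. Alternatives were a prefix block, pseudocounts 0.1 and 2, no filter, diffSpliceDGE, DESeq2 1.42.0 and leaving out libraries. Both fits were tested on simulated data. Named in full are the 25 members with the largest difference, the 3 nearest the threshold on each side and members with a cassette exon; Bfar, Tmem70, Pqlc1 and Haus3 were given values after these were seen.

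Deviations from group means correlated between libraries of the same prefix (0.115 to 0.438 over 12 pairs for shares, 0.204 to 0.473 for genes). Over 36 pairs of other prefixes the ranges overlapped these, at -0.386 to 0.342 (median -0.169, beside 0.271 for the same prefix) and -0.45 to 0.333. The prefix was taken to pair libraries because every same-prefix correlation was above 0.1.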

Additional observations from a re-analysis of the deposited data

Results flagged for a closer look

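In 12 of 105 groups of 4 libraries, 1 library's share of a lead transcript stood apart from the other 3 (its gap to the nearest, over the group's range, was above Dixon's 95% critical value, which chance gives in about 1 of 20 groups). In tumor-draining libraries, prefix 1 stood apart at 29.3% for Ypel3-205 (others 0 to 4.69%), at 68.7% for Ttc13-211 (others 49.0 to 49.3%) and at 38.05% for Nasp-202 (others 51.5 to 53.7%). Prefix 3 stood apart at 35.96% for Cndp2-202 (others 24.5 to 26.0%), at 69.3% for Stat5a-202 (others 49.0 to 51.5%) and at 52.9% for Pqlc1-204 (others 35.9 to 37.2%). Prefix 4 stood apart at 38.4% for Snapin-205 (others 58.7 to 61.7%) and at 27.2% for Ramac-202 (others 39.5 to 40.9%). In agonist libraries prefix 1 stood apart at 0.78% for Rhoc-205 (others 0) and at 30.7% for Bnip1-201 (others 64.2 to 71.0%). In healthy libraries prefix 1 stood apart at 75.7% for Scaf1-202 (others 57.7 to 58.8%) and prefix 4 at 27.3% for Pqlc1-204 (others 36.1 to 37.3%).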

How the results depend on the processing

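The set depended on every limit of its rule. It held 82 genes with a gene minimum of 5 TPM, 4 with 20 TPM, 143 with a share difference of 10 points, 7 with 20 points and 70 with protein-coding transcripts only, of which 19 were among the 35. Shares of estimated counts gave 34 genes, 14 of them in common. Leaving out 1 prefix gave 43 to 87 genes, 21 to 32 of them in common. The rule then asked for the same direction in the remaining prefixes only, which is easier to meet. No lead's mean difference changed sign on count shares, but 15 of 35 moved by more than the SD of their 4 differences. Without 1 prefix the sign could not change, because the rule required the same direction in all 4 prefixes. With protein-coding transcripts only, 24 leads had a value and 4 moved: Vps4a-201 and Ppie-201 to 0, Bnip1-201 to 1.45 and Parp11-204 to 28.7 points. For Vps4a-201 the 0 was fixed, because the other transcripts of its gene are annotated as retained introns. The calls against healthy libraries for agonist were 4 with pseudocount 2, 2 without the filter on mean share, 58 in diffSpliceDGE and 0 to 1 with 1 library left out. For tumor-draining they were 57 in diffSpliceDGE and 0 to 0 with 1 library left out. The splicing regulator count of 0 was 20 with the prefix as a replicate block, 4 in DESeq2 and 0 to 0 with 1 library left out. The block gave 0 and 1 share calls for tumor-draining and agonist, as without it. The causes were not tested. Few reads limit shares of transcripts shorter than 600 nucleotides.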
